A study of Mus musculus with 24 samples.

Results

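The Reg (regenerating islet-derived) genes encode small secreted proteins of the C-type lectin fold. The 7 mouse genes of the family, Reg1, Reg2, Reg3a, Reg3b, Reg3d, Reg3g and Reg4, were taken by name from a count table of 53465 genes. The table came from bulk RNA sequencing of intestinal epithelium sorted by fluorescence, with 3 libraries in each of 8 groups, 24 in all. Of the 15044 genes that passed a filter on low counts, 5 were Reg genes (Reg1, Reg3a, Reg3b, Reg3g and Reg4), whereas Reg2 and Reg3d were too low to be tested.

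Reg proteins are secreted into the gut lumen and are best known from the Reg3 branch. Reg3g binds peptidoglycan and acts on Gram-positive bacteria, Reg3b acts mainly on Gram-negative bacteria, and both are induced in epithelial cells by interleukin-22 through Stat3 and by microbial signals through Myd88. Reg1 and Reg2 were first known from the pancreas, and Reg4 is found in secretory cells of the gut.

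All mice carried the same transgene, Guca2a-Venus, in which the guanylin promoter on a bacterial artificial chromosome drives the yellow fluorescent protein Venus, and the line goes back to 1 founder. According to the authors, the line was made in C57Bl6J/CBA F1 ova and its animals were backcrossed into C57Bl6J for differing numbers of generations. The labels do not give this number for any library. The groups were Venus-positive and Venus-negative cells (labelled GFP positive and GFP negative) from the duodenum, jejunum, ileum and colon of mice on standard chow, with no further treatment, and no age is given in the labels. Dead cells, debris and CD45+ immune cells had been gated out, and the negative group was the non-fluorescent cells of the remainder, which are not a single type. In bulk samples of this kind, fewer cells of a type and less RNA per cell cannot be told apart. The series gives 3 mice for the whole design, so libraries of different groups may come from the same animal, but the labels do not say which. The libraries were therefore treated as separate, and the p-values measure the spread between them.

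Guca2a, the gene behind the fluorescent label, was higher in the positive cells of all 4 regions, with log2 fold changes between 2.65 in the jejunum and 5.75 in the duodenum. Reads on genes ranged from 7458616 to 23063124 per library, and 3 reads corresponded to between 0.106 and 0.360 CPM. CPM are the reads of a gene scaled to library size after the filter, multiplied by the library's TMM scaling factor. These factors ran from 0.702 in jejunal negative library 1 to 1.55 in ileal negative library 1. The share of gene reads from the mitochondrial genome was lower in positive than in negative cells of the small intestine, at 32.3% to 46.6% against 64.6% to 76.4% in duodenal, 47.1% to 60.6% against 61.2% to 78.8% in jejunal and 41.0% to 55.4% against 64.7% to 70.9% in ileal libraries, and overlapped in colonic ones. When only protein-coding genes outside the mitochondrial genome were counted, no Reg gene changed its call between positive and negative cells. Region markers were checked against the labels. Pdx1, the homeobox gene of the proximal gut, stood at 19.6 ± 3.22 CPM (SD, n = 3) in duodenal positive cells and at 0.0972 ± 0.168 CPM in jejunal ones, and the summed level of 4 colonocyte markers was 1461 to 1648 CPM in colonic positive libraries and at most 158 CPM in any library of the small intestine, although colonic negative libraries, at 100.9 to 258 CPM, overlapped with the latter.

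Of the 7 genes, 6 lay within 98.22 kb of mouse chromosome 6 (GRCm38, GENCODE M21), in the order Reg3b (chr6:78370657-78373466, plus strand), Reg3d (chr6:78375874-78378865, minus strand), Reg3a (chr6:78380709-78383827, plus strand), Reg2 (chr6:78395623-78408106, plus strand), Reg1 (chr6:78422711-78428667, plus strand) and Reg3g (chr6:78466269-78468872, minus strand). Reg4 lay apart on chromosome 3 (chr3:98222156-98236748, plus strand). None of them overlapped another annotated gene. For Reg3a, Reg3b, Reg3d, Reg3g and Reg4, no stretch of 50 bases, the length of a read, was shared with the transcripts of any other gene, so that reads of the Reg3 genes could be told apart in spite of their relatedness. In Reg1, 32 of 876 such stretches also occurred in other genes, and in Reg2, 102 of 899, but none of these were in another Reg gene.

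All 7 genes were found in the RefSeq promoter table (GRCm38.p6). The 150 bases before the RefSeq start, which for Reg3b and Reg1 lies inside the GENCODE span of the gene given above, are shown for Reg3b and Reg3g, which had the closest patterns of any pair of members across the groups, and for Reg3a and Reg1, which lie in the same cluster and followed other patterns. Capitals mark the TATA box letters TATAAA and, in Reg3b and Reg3g, the longest stretch shared by their promoters. The windows are chr6:78370735-78370884 (plus strand) for Reg3b, chr6:78468875-78469024 (minus strand) for Reg3g, chr6:78380559-78380708 (plus strand) for Reg3a and chr6:78425833-78425982 (plus strand) for Reg1.
Reg3b: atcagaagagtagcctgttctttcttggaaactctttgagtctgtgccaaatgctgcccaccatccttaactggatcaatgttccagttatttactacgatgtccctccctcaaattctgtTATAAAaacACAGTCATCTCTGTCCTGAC
Reg3g: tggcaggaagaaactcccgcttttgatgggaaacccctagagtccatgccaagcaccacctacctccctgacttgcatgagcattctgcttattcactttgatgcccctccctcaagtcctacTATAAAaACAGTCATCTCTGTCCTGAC
Reg3a: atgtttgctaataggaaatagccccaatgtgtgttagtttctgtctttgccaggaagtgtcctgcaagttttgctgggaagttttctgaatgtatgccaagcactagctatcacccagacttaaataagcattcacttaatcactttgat
Reg1: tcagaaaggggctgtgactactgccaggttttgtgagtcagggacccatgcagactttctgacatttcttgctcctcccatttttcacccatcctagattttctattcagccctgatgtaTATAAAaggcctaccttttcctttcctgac

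The last 20 bases before the start were the same in Reg3b and Reg3g, although the genes lie at opposite ends of the cluster and on opposite strands. Of 32851 promoter windows of 250 bases, only 2 held this stretch, those of Reg3b and Reg3g. Among the other 20 pairs of Reg genes, the longest shared stretch was 12 bases. The letters TATAAA, searched on both strands of the 250 bases before the start, stood 30 bases before the start of Reg1 and Reg2, 29 before that of Reg3b and 27 before that of Reg3g, with a further match in Reg3g at 161 bases, and both matches in Reg3g overlap one to the CDX letters TTTATNG. They were found in 12.4% of all windows, and not in those of Reg3a, Reg3d or Reg4. The STAT letters TTCNNNGAA occurred once in Reg3b, 129 bases before the start, and once in Reg3d, at 238 bases, compared with 7.02% of all windows. Such matches are descriptions of the sequence, and binding was not measured.

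Reg3b and Reg3g, the bactericidal lectins, were the most abundant members in the jejunum and ileum, and both peaked in ileal positive cells. Reg3b was measured at 3730, 7079 and 6485 CPM in the 3 ileal positive libraries and at 387, 2116 and 1553 CPM in the negative ones. All 3 positive libraries lay above all negative libraries. The difference was 4.26-fold (log2 2.09 ± 0.61 SE, adjusted p = 0.00770, edgeR quasi-likelihood test). Reg3g was measured at 1255, 3533 and 2673 CPM in positive cells and at 190, 1117 and 712.01 CPM in negative cells of the ileum, again without overlap. The difference was 3.69-fold (log2 1.89 ± 0.63 SE, adjusted p = 0.0191). It lost significance without ileal positive library 2 (adjusted p = 0.0804) or negative library 1 (adjusted p = 0.0955), whereas that of Reg3b remained significant without any single library.

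Reg3a, a further lectin of the same cluster, was measured at 27.7, 22.4 and 25.6 CPM in positive cells and at 3.05, 4.73 and 7.04 CPM in negative cells, a 5.12-fold difference (log2 2.36 ± 0.48 SE, adjusted p = 0.000247). Reg4 was also higher in ileal positive cells, at 59.2, 14.7 and 28.5 CPM against 13.8, 8.46 and 8.20 CPM. Its groups were close to each other, with the lowest positive library just above the highest negative one, and the 3.36-fold difference (log2 1.75 ± 0.64 SE, adjusted p = 0.0311) lost significance without positive library 1 (log2 1.08, adjusted p = 0.206), negative library 2 (adjusted p = 0.0906) or negative library 3 (adjusted p = 0.0965).

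Reg1 went the other way in the ileum. It gave 5, 0 and 5 reads in the positive libraries and 16, 24 and 29 in the negative ones, or 0.212 ± 0.190 against 1.04 ± 0.502 CPM, and was lower in positive cells (log2 -2.25 ± 0.61 SE, adjusted p = 0.00402). When the ileal libraries were fitted alone this call was lost (adjusted p = 0.0979). All 5 tested Reg genes thus differed between positive and negative ileal cells, 4 higher and 1 lower, where 17.9% of all genes tested were higher and 20.6% lower.

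**Figure D1:**
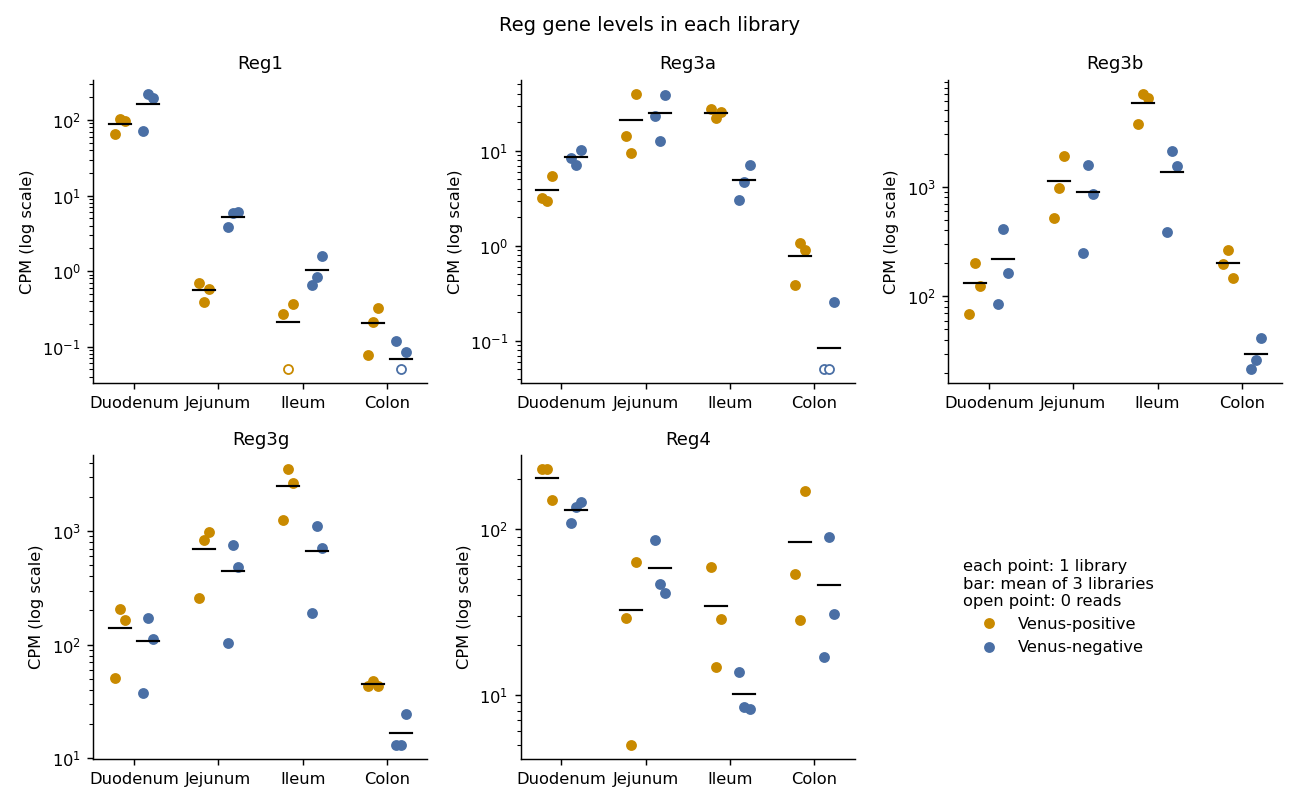
Level of the 5 tested Reg genes in each of the 24 libraries, in CPM on a log axis, by region (x axis) and sort (colour). Each point is 1 library, bars are means of 3 libraries and open points at the bottom are libraries with 0 reads. Reg3b and Reg3g peak in ileal positive cells at means of 5764 and 2487 CPM, and Reg1 is highest in the duodenum.

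In the colon, Reg3b was higher in positive cells, at 195, 266 and 147 CPM against 21.6, 26.2 and 41.5 CPM, a 6.81-fold difference (log2 2.77 ± 0.63 SE, adjusted p = 0.00346). The 2 groups were far apart, and the difference remained significant without any single library. Reg3a gave 5, 15 and 14 reads in colonic positive cells and 0, 0 and 3 in negative cells. Against the level that 3 reads per library correspond to, it was at least 2.82-fold higher in positive cells. The test called it (adjusted p = 0.0250), but no longer without positive library 2 (adjusted p = 0.12), positive library 3 (0.0553), negative library 1 (0.0828) or negative library 2 (0.145). With the colonic libraries fitted alone, Reg3a did not pass the filter on low counts and was not tested.

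Reg3g was measured at 42.7, 47.8 and 43.2 CPM in colonic positive cells and at 12.9, 13.0 and 24.2 CPM in negative cells. The groups did not overlap, but the difference of log2 1.41 ± 0.63 (SE) did not pass the threshold (adjusted p = 0.146), with a 95% interval from 0.12 to 2.71. It passed when the colonic libraries were fitted alone (adjusted p = 0.0133) and with no filter on low counts (adjusted p = 0.000724). Reg4 varied 5.999-fold among the colonic positive libraries (53.4, 28.2 and 169 CPM) and 5.31-fold among the negative ones (16.9, 89.7 and 30.6 CPM), and its difference of log2 0.87 did not pass (95% interval -0.40 to 2.14). Reg1 gave at most 5 reads in any colonic library. In the colon, 2 of the 5 tested Reg genes were thus higher and none was lower, compared with 9.31% and 3.8% of all genes tested.

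In the jejunum, only Reg1 differed between positive and negative cells. It was measured at 0.703, 0.390 and 0.583 CPM in positive cells (11, 7 and 8 reads) and at 3.87, 5.92 and 6.05 CPM in negative cells (51, 92 and 100 reads). It was 9.43-fold lower in positive cells (log2 -3.24 ± 0.49 SE, adjusted p = 4.64e-06), and remained lower without any single library. The 1 of 5 Reg genes that was lower stood against 25.6% of all genes tested, and the 0 of 5 that were higher against 18.3%. Of the other 4 genes, none was at an unadjusted p under 0.05 or called by DESeq2.

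No Reg3 gene was called in the jejunum. Reg3b was measured at 515, 964 and 1895 CPM in positive and at 250, 1579 and 854 CPM in negative cells, and Reg3g at 258, 836 and 981 against 103, 764 and 482 CPM. The groups overlapped for both genes. In accession order, each positive library lay above the negative one of the same number for Reg3g, whereas positive library 2 lay below it for Reg3b. The labels do not say whether such libraries share a mouse. The log2 difference was 0.33 for Reg3b (95% interval -0.88 to 1.54) and 0.62 for Reg3g (95% interval -0.64 to 1.88). Reg3a was at 14.3, 9.48 and 40.1 CPM in positive and 23.4, 12.6 and 38.7 CPM in negative cells, a log2 difference of -0.23 (95% interval -1.16 to 0.69). Reg4 was at 29.2, 4.96 and 63.4 CPM in positive and 86.0, 46.3 and 41.1 CPM in negative cells, a log2 difference of -0.83 (adjusted p = 0.290), which reached -1.76 (adjusted p = 0.0351) without positive library 3.

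In the duodenum, no Reg gene passed the threshold in edgeR, where 8.88% of all genes tested were higher in positive cells and 8.08% lower. At an unadjusted p under 0.05 there were 2, Reg1 and Reg3a, and DESeq2 called 0. Reg1 was measured at 66.2, 104 and 95.8 CPM in positive and at 71.6, 224 and 194 CPM in negative cells, with overlap through 1 low negative library (log2 -0.88 ± 0.37 SE, adjusted p = 0.103). Without that library, negative library 1, the difference was -1.24 (adjusted p = 0.0271). Reg3a was measured at 3.18, 2.96 and 5.40 CPM in positive and at 8.35, 7.07 and 10.3 CPM in negative cells. These groups did not overlap, with a difference of log2 -1.16 ± 0.49 (SE, adjusted p = 0.0964) that passed when the duodenal libraries were fitted alone (adjusted p = 0.0439) and with the sequencing index as a covariate (adjusted p = 0.0278).

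Reg3b was at 68.6, 201 and 125 CPM in duodenal positive and at 85.9, 413 and 164 CPM in negative cells, and Reg3g at 51.0, 208 and 163 against 37.3, 171 and 111 CPM. The groups overlapped for both genes (log2 -0.75, 95% interval -1.96 to 0.47, and log2 0.40, 95% interval -0.86 to 1.66). In accession order, each positive library lay below the negative one of the same number for Reg3b, and above it for Reg3g. The labels do not say whether such libraries share a mouse, and no paired test was run. Reg4 was at 229, 229 and 149 CPM in positive and at 109, 135 and 145 CPM in negative cells, without overlap but by a narrow margin (log2 0.64, 95% interval -0.62 to 1.91).

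**Figure D2:**
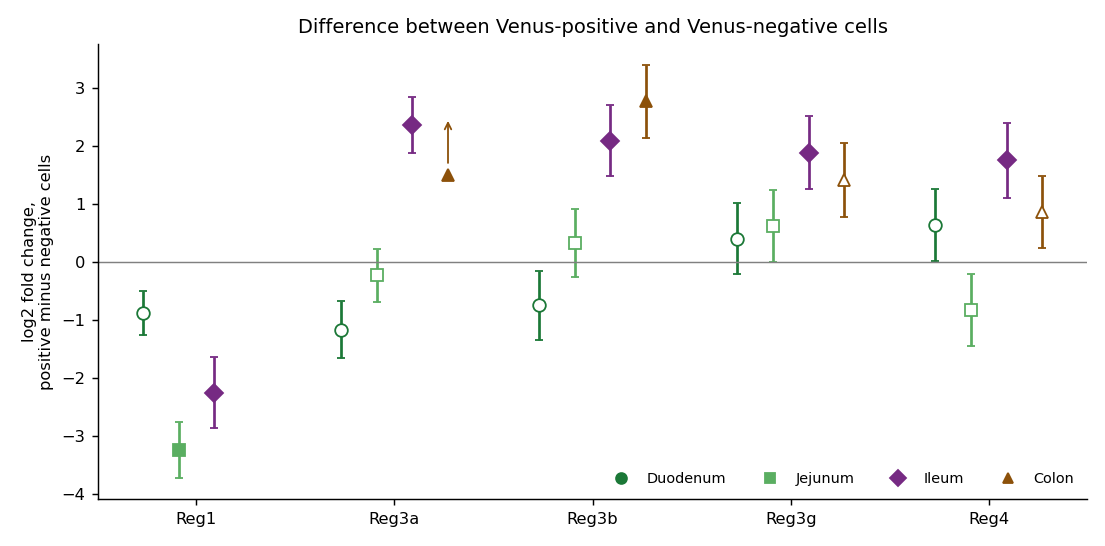
Log2 fold change between Venus-positive and Venus-negative cells (y axis) for the 5 tested Reg genes in each region (symbol and colour), with bars of 1 SE. Filled symbols passed an adjusted p of 0.05, the arrow marks a lower bound for Reg3a in the colon, and Reg1 in the colon is left out because of its low counts. Ileal values lie between 1.75 and 2.36 for the Reg3 genes and Reg4, and at -2.25 for Reg1.

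The difference between positive and negative cells depended on the region for 3 members. For Reg3a, the duodenal difference was lower than the ileal one by 3.52 on the log2 scale (SE 0.68, adjusted p = 0.000948), with differences of -1.16 and 2.36 in the 2 regions. For Reg3b, the duodenal difference was lower than the ileal one by 2.84 (SE 0.85, adjusted p = 0.0288) and lower than the colonic one by 3.52 (SE 0.86, adjusted p = 0.0158). Both calls of Reg3b were lost on leaving out single libraries: the duodenum against the ileum without duodenal positive 1 or 3, duodenal negative 2, ileal positive 2 or 3, or ileal negative 1 (adjusted p up to 0.148), and the duodenum against the colon without duodenal positive 1, duodenal negative 2, colonic positive 2 or colonic negative 2 (adjusted p up to 0.0869). For Reg1, the jejunal difference was larger than the duodenal one by log2 2.36 (SE 0.61, adjusted p = 0.00921), and this call remained without any single library.

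Calls were also made for Reg3a between the duodenum and colon (adjusted p = 0.0158) and between the jejunum and colon (adjusted p = 0.0412), and for Reg1 between the jejunum and colon (adjusted p = 0.00900), but these rest on low colonic counts: Reg3a gave 5, 15 and 14 reads in positive and 0, 0 and 3 in negative libraries, and Reg1 1, 3 and 5 in positive and 1, 0 and 1 in negative libraries. These calls were also lost on leaving out single libraries. No Reg gene was called between the duodenum and colon without colonic positive library 2 or colonic negative library 2. The same held between the jejunum and colon without colonic positive library 3. In all, 1 of 5 Reg genes was called between the duodenum and jejunum (14.6% of all genes tested), 2 between the duodenum and ileum (10.5%), 2 between the duodenum and colon (3.62%) and 2 between the jejunum and colon (9.69%). None was called between the jejunum and ileum (0.266%) or between the ileum and colon (2.79%) in edgeR, where 3 and 1 were at an unadjusted p under 0.05 and DESeq2 called 1 in each. For Reg3g and Reg4 no pair of regions passed.

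Along the gut, the order of the levels in positive cells differed between members. Reg3b fell in the order ileum (5764 ± 1787 CPM), jejunum (1125 ± 704.03 CPM), colon (203 ± 59.7 CPM) and duodenum (132 ± 66.6 CPM). The jejunum stood below the ileum (log2 -2.36, adjusted p = 0.0198) and above the colon (log2 2.47, adjusted p = 0.00263), but the colon and duodenum overlapped (adjusted p = 0.583). The call between the jejunum and ileum was lost without jejunal positive library 1 or 2 or ileal positive library 2. Reg3g followed with 2487 ± 1150 CPM in ileal, 691 ± 383 CPM in jejunal, 141 ± 80.9 CPM in duodenal and 44.6 ± 2.81 CPM in colonic cells. Of the neighbours in this order, only the duodenum and jejunum differed past the threshold (log2 -2.30 for the duodenum minus the jejunum, adjusted p = 0.00649), whereas the ileum and jejunum (adjusted p = 0.0914) and the duodenum and colon (adjusted p = 0.0859) did not pass although their libraries did not overlap.

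Reg3a did not differ past the threshold between the ileum (25.2 ± 2.67 CPM) and jejunum (21.3 ± 16.5 CPM, adjusted p = 0.867), and was lower in the duodenum (3.84 ± 1.35 CPM, adjusted p = 0.000280 against the jejunum) and lowest in the colon (0.784 ± 0.353 CPM, adjusted p = 0.00508 against the duodenum). Reg1 marked the duodenum, at 88.8 ± 20.04 CPM against 0.559 ± 0.158 CPM in the jejunum, a 158-fold difference (log2 7.30 ± 0.52 SE, adjusted p = 8.14e-11), and the jejunum, ileum and colon did not differ past the threshold. Reg4 was highest in the duodenum (203 ± 46.3 CPM), followed by the colon (83.7 ± 75.3 CPM), the ileum (34.1 ± 22.7 CPM) and the jejunum (32.5 ± 29.3 CPM). The duodenum stood above the jejunum (log2 2.64, adjusted p = 0.00239) and the ileum (log2 2.57, adjusted p = 0.00424), and the colon overlapped with all 3 other regions.

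Each of the 5 tested genes thus differed in positive cells between the duodenum and jejunum (33.2% of all genes tested) and between the duodenum and ileum (25.5%). Between the duodenum and colon 2 differed (12.4%), between the jejunum and ileum 1 (5.15%), between the jejunum and colon 3 (33.9%) and between the ileum and colon 3 (21.7%).

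**Figure D3:**
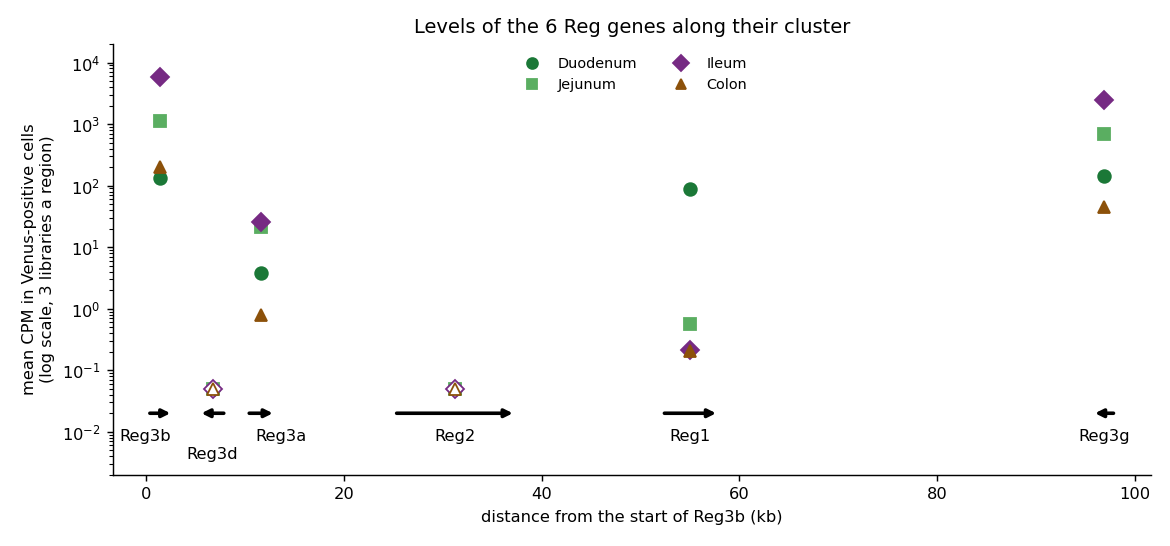
Mean level of the 6 clustered Reg genes in Venus-positive cells of each region (symbol and colour; CPM on a log axis, 3 libraries a region) against distance from the start of Reg3b in kb. Arrows give each gene's extent and strand, and open symbols are means under 0.05 CPM, drawn at that level. The ileum is highest for Reg3b, Reg3a and Reg3g, and the duodenum for Reg1, which lies between Reg3a and Reg3g.

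Negative cells of the same regions gave a different order for some members. Reg1 fell stepwise from 163 ± 80.7 CPM in the duodenum to 5.28 ± 1.22 CPM in the jejunum (log2 4.94 ± 0.44 SE, adjusted p = 3.19e-08) and to 1.04 ± 0.502 CPM in the ileum (log2 2.37 ± 0.44 SE, adjusted p = 0.00117). In the colon it gave 1, 0 and 1 reads, so that duodenal negative cells were at least 587-fold higher. Reg3a had its highest mean in the jejunum (24.9 ± 13.1 CPM), above the ileum at 4.94 ± 2.002 CPM (log2 2.34 ± 0.48 SE, adjusted p = 0.00381). The duodenum, at 8.58 ± 1.63 CPM, did not differ from the jejunum past the threshold (log2 -1.54 for the duodenum minus the jejunum, adjusted p = 0.204). Reg4 stood at 130 ± 18.8 CPM in the duodenum, 57.8 ± 24.5 CPM in the jejunum, 10.1 ± 3.15 CPM in the ileum and 45.7 ± 38.7 CPM in the colon. The duodenum and jejunum did not differ past the threshold (log2 1.17, adjusted p = 0.910). The jejunum stood above the ileum (log2 2.51, adjusted p = 0.0351), and the ileum below the colon (log2 -2.17, adjusted p = 0.0444).

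Reg3b and Reg3g shared 1 order in negative cells, with means of 1352 ± 882 and 673 ± 465 CPM in ileal, 894 ± 666 and 450 ± 332 CPM in jejunal, 221 ± 171 and 107 ± 67.1 CPM in duodenal and 29.8 ± 10.4 and 16.7 ± 6.51 CPM in colonic cells. The ileum and jejunum overlapped for both. The duodenum was at log2 -2.01 (95% interval -3.27 to -0.76) and -2.08 (95% interval -3.38 to -0.77) against the jejunum, which did not pass the threshold (adjusted p = 0.206 and 0.209). In this comparison 4 of 5 Reg genes were at an unadjusted p under 0.05, while edgeR and DESeq2 each called 1. The duodenum was above the colon for Reg3b (log2 2.89, adjusted p = 0.00198) and Reg3g (log2 2.67, adjusted p = 0.00608).

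Among negative cells, 1 of the 5 Reg genes differed between the duodenum and jejunum (0.725% of all genes tested), 4 between the duodenum and ileum (4.4%), 4 between the duodenum and colon (11.2%), 3 between the jejunum and ileum (2.11%), 4 between the jejunum and colon (10.5%) and all 5 between the ileum and colon (5.24%).

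Reg2 and Reg3d were close to the limit of detection. Reg2 gave 0 reads in 23 of 24 libraries and 3 reads in 1 colonic negative library. Reg3d gave 3 reads in all 12 positive libraries together and 20 in all 12 negative ones, and passed 3 reads in only 3 libraries, all negative, with 5 reads in a duodenal and 7 and 6 reads in a pair of jejunal libraries. At most 7 reads in any library means that Reg3d, which lies 2.408 kb from Reg3b and 1.844 kb from Reg3a, was near 0 where its neighbours were high. Of 9 pancreatic acinar genes, Prss2, Cela2a, Cpb1 and Pnlip gave 0 reads in every library, and Ctrb1, Cpa1, Cela3b and Cel gave at most 14, 13, 5 and 4 reads in any library. Only Cela1, an elastase gene, passed the filter, and it was lower in ileal positive cells (0.763 against 2.98 CPM, log2 -1.91, adjusted p = 0.00541). Its level was highest in the colon, at 29.1 CPM in positive and 69.3 CPM in negative cells, where it was not called (adjusted p = 0.0617).

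To compare members with each other, CPM were divided by the length of the longest coding transcript. The order and shares depend on this choice, which gave 771 bases for Reg3g and 783 for Reg3b. All annotated exons span 2114 and 1142 bases, and these lengths would lower the values of both genes per kb. Per kb, ileal positive cells held 7362 ± 2282 CPM of Reg3b and 3226 ± 1492 CPM of Reg3g, but only 33.4 ± 22.3 CPM of Reg4, 30.6 ± 3.24 CPM of Reg3a and 0.235 ± 0.211 CPM of Reg1. In duodenal positive cells the members lay closer together, with 198 ± 45.4 CPM per kb of Reg4, 183 ± 105 of Reg3g, 168 ± 85.1 of Reg3b and 98.2 ± 22.2 of Reg1, and Reg3a far below at 4.66 ± 1.64. Reg3b thus made up 24.7% ± 5.17 of the summed Reg level per kb in duodenal positive cells and 69.9% ± 3.66 in ileal ones, while Reg4 made up 32.8% ± 14.4 and 0.412% ± 0.422. In the colon, Reg4 took 20.5% ± 17.7 in positive and 38.9% ± 21.4 in negative cells. Of all reads on genes before the filter, the Reg family took 1.02% ± 0.297 in ileal positive cells and 0.00836% ± 0.00325 in colonic negative cells. These reads include mitochondrial ones, at 41.0% to 55.4% in ileal positive and 65.3% to 80.7% in colonic negative libraries.

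**Figure D4:**
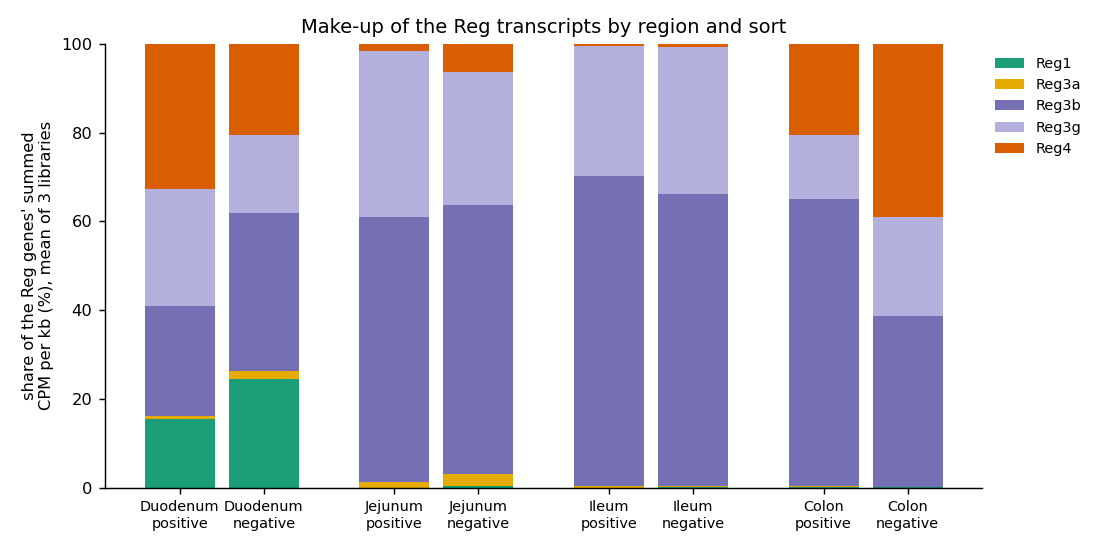
Make-up of the Reg transcripts in each group, as each gene's share (%) of the summed CPM per kb of the family, with shares taken in each library and averaged over 3 libraries. Reg3b and Reg3g fill nearly the whole bar in the jejunum and ileum, Reg1 is visible only in the duodenum (15.4% in positive and 24.6% in negative cells), and Reg4 is visible mainly in the duodenum and colon.

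Reg3b and Reg3g were also compared by the ratio of their reads. Negative cells held 1.48 to 2.43 Reg3b reads per Reg3g read in every library, with region means of 2.06, 2.09, 2.04 and 1.80 from duodenum to colon. In positive cells the ratio was 1.35, 0.968 and 0.765 in the 3 duodenal libraries, 1.999, 1.15 and 1.93 in the jejunal, 2.97, 2.003 and 2.43 in the ileal and 4.58, 5.56 and 3.40 in the colonic ones. The duodenal positive libraries thus lay below, and the colonic positive libraries above, the negative libraries of their region, without overlap. In the jejunum and ileum the groups overlapped. With 3 against 3 libraries an exact permutation test (two-sided) cannot give a p under 0.1. It therefore cannot decide whether these ratios differ, and no conclusion is drawn from it.

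**Figure D5:**
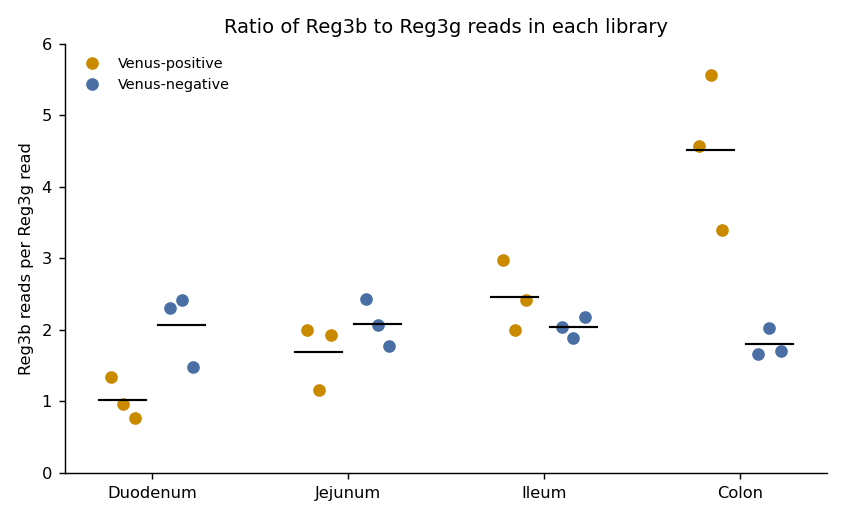
Reg3b reads per Reg3g read in each library (y axis, linear from 0) by region and sort, with bars at the mean of 3 libraries. Negative cells stay between 1.48 and 2.43, while positive cells run from means of 1.03 in the duodenum to 4.52 in the colon.

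Likeness of pattern was measured as the root mean square difference between centred mean log2 CPM over the 8 groups, for which the nearest 3 of 12499 protein-coding genes are named. The nearest gene to Reg3b was Reg3g (0.56), followed by Ptpn22 (0.66), a phosphatase gene of immune signalling, and Tgfbi (0.76). Ptpn22 had means of only 0.0283 to 0.236 CPM in the duodenal and colonic groups, near the level of 3 reads. Nearest to Reg3g were H2-Aa (0.55), Reg3b (0.56) and Cd74 (0.61), of which H2-Aa encodes an MHC class II chain and Cd74 the invariant chain. H2-Aa stood at 70.2 ± 62.1 CPM in ileal positive and 14.0 ± 11.5 CPM in ileal negative cells. The immune markers Ptprc, Cd79a, Cd3e and Lyz2 summed to 5.22 to 8.47 CPM in ileal positive and 1.73 to 5.04 CPM in ileal negative libraries. Of the 3 that were tested, Lyz2 was called higher (3.07 against 0.315 CPM), and Cd3e and Ptprc, the CD45 gene (1.79 against 1.96 CPM), were not called. Lyz2 was also higher in duodenal positive cells (16.3 against 0.281 CPM), where Ptprc stood at 0.0750 against 0.490 CPM. The part of the immune markers in these patterns was not tested.

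Reg1 was nearest to Sult6b2 (1.11), Pdx1 (1.16) and Gkn3 (1.38), all of them highest in the duodenum, and Reg3a to Slc7a9 (0.60), a transporter gene of amino acid uptake, Depdc7 (0.61) and Cndp1 (0.63). Reg4 was nearest to H2-Q10 (0.59), Gsta1 (0.67) and Ly6e (0.70). Group means ran only from 0.153 to 2.09 CPM for H2-Q10 and from 0.0960 to 3.55 CPM for Gsta1. Sult6b2 was at most at 0.294 CPM outside the duodenum. The likeness of these genes rests partly on levels near 3 reads. For each member, 1% of the candidate genes came within 2.74 (Reg1), 1.36 (Reg3a), 1.42 (Reg3b), 1.33 (Reg3g) and 0.97 (Reg4).

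A list of 12 receptor and signalling genes held the receptor chains and signalling genes of interleukin-22, interleukin-17 and interleukin-6, and Extl3, reported as a receptor for Reg proteins. Of these, 5, 8, 7 and 6 were higher in positive cells from duodenum to colon (8.88%, 18.3%, 17.9% and 9.31% of all genes tested), and none was lower. Their median log2 fold change was 0.63, 1.39, 1.21 and 0.73, against -0.16, -0.28, -0.27 and 0.00 over all genes tested. Il22ra1, the specific chain of the interleukin-22 receptor, was higher in all 4 regions, from log2 1.54 ± 0.32 (SE) in the duodenum to 2.73 ± 0.33 in the ileum, where it stood at 76.8 against 11.6 CPM. The kinase genes Jak1 and Jak2 and the transcription factor gene Stat3 were also higher in all 4 regions, with Stat3 between log2 1.53 in the colon and 2.28 in the ileum. Tyk2, a further kinase gene of the list, was not called in any region (adjusted p = 0.0646 to 0.713), nor were Il6ra and Il6st, the interleukin-6 receptor genes. Socs3, a feedback inhibitor induced by Stat3, was called higher in the jejunum (log2 1.72, adjusted p = 0.0169) and in no other region (log2 1.15, adjusted p = 0.111 in the ileum). How these genes relate to the Reg differences was not tested. Extl3 was not called in any region, with means of 3.03 to 6.88 CPM in all groups.

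Of 10 genes of microbial sensing, 9 were tested, of which 1, 2, 2 and 1 were higher from duodenum to colon, where 8.88%, 18.3%, 17.9% and 9.31% of all genes tested were higher. Ticam1, an adaptor of Toll-like receptors, was higher in the jejunum, ileum and colon (log2 1.68, 1.87 and 0.96), Irak4 in the jejunum and ileum (log2 0.99 in both) and Traf6 in the duodenum (log2 1.26). Myd88, the adaptor through which Reg3g is induced, was not called in any region, and its ileal difference was log2 0.91 (adjusted p = 0.0954). Tlr2 was lower in ileal positive cells (log2 -2.38, adjusted p = 0.0378).

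Among 20 other antimicrobial and interleukin-22 target genes, 15 were tested, of which 7, 8, 11 and 7 were higher from duodenum to colon (8.88%, 18.3%, 17.9% and 9.31% of all genes tested). Lypd8 and Saa3 were lower in the jejunum, as were 25.6% of all genes tested, but Saa3 was near the limit of detection there (0 against 0.264 CPM). The median log2 fold change of the 15 genes was 2.22, 2.70, 3.61 and 2.06, the largest being ileal. The summed level of the list was highest in duodenal positive cells (16370 to 20115 CPM), where Zg16, a lectin of goblet cell mucus, stood at 8156 against 30.9 CPM and Itln1, an intelectin, at 5786 against 52.5 CPM. Nos2, inducible nitric oxide synthase, stood at 234 against 19.1 CPM in the ileum (log2 3.61, adjusted p = 0.000224), 70.4 against 8.41 CPM in the jejunum and below 1 CPM in both duodenal groups. S100a8 and S100a9 gave 0 reads in every library.

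Markers of several cell types also differed between positive and negative cells. Of all genes tested, 8.88%, 18.3%, 17.9% and 9.31% were higher in positive cells from duodenum to colon. The shares that were lower were 8.08%, 25.6%, 20.6% and 3.8%. In the ileum, 7 goblet markers summed to 3607 to 8403 CPM in positive and 272 to 339 CPM in negative libraries, 7 Paneth markers to 4174 to 9611 and 231 to 428 CPM, and 8 enterocyte markers to 5989 to 11469 and 520 to 754 CPM, with every marker of the 3 lists called higher. In the duodenum, where no Reg gene was called, goblet and Paneth markers were all higher (45926 to 51710 against 283 to 398 CPM, and 16483 to 46273 against 165 to 673 CPM), whereas 2 of 8 enterocyte markers were called and the sums of the list nearly met (1990 to 4099 against 1415 to 1984 CPM). In the jejunum all 8 enterocyte markers were higher (22883 to 28274 against 2194 to 2810 CPM), along with all 7 goblet and 7 Paneth markers. In the colon, 7 goblet, 5 of 8 enterocyte and 4 colonocyte markers were higher, and none of 7 Paneth markers was called. Enteroendocrine markers were lower in positive cells (9, 9, 8 and 6 of 9 from duodenum to colon), as were tuft (3, 4, 4 and 0 of 4) and stem and proliferation markers (2, 5, 5 and 3 of 5). The part of these markers in the Reg differences was not tested.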

How the data were processed

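RNA from sorted cells was made into stranded total RNA libraries and sequenced as single-end reads of 50 bases. The deposited values are raw counts of reads per gene that the authors obtained with STAR (version 2.5.1 in the submitters' processing notes) on the mouse genome GRCm38, without normalisation. The annotation and strand column are not given in the sources used here. Lines of the table for reads outside genes (39.4% to 75.8% of all reads) were left out. GENCODE M21 named 53360 of the 53465 genes.

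Groups were taken from the labels, which name no mouse, so no pairing was used. Libraries of a group are numbered in accession order. No replicate pair agreed within sampling noise (chi-square per degree of freedom 23.7 to 154). The tests used edgeR 4.0.16 (limma 3.58.1, R 4.3.3): filterByExpr (minimum count 10, minimum total 15), TMM, a quasi-likelihood model of all 24 libraries with 1 coefficient per group (common dispersion 0.185), and Benjamini-Hochberg adjustment over 15044 genes with a threshold of 0.05. SE values are the log2 fold change divided by the square root of F. A floor of 3 counts served for bounds, which cover counting error only. Alternatives were DESeq2 1.42.0, RLE or no scaling factors, other filters, protein-coding genes alone, the i5 index, fits of the compared libraries alone, a threshold of 0.01, and leaving out each library. Shares of all genes tested are given for the main fit at the adjusted threshold only, not for unadjusted p or the alternatives.

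The members, gene lists and markers were chosen with earlier results of these data known. All 7 members were named, with the 3 genes nearest in pattern to each tested one, and genes of the lists where lowest, highest or an exception. Other named genes of the lists, such as Jak1, Irak4, Myd88 and Nos2, were chosen after their values were seen. Promoter sequences and their positions are from RefSeq (GRCm38.p6). Protein sequences were not used here.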

Additional observations from a re-analysis of the deposited data

Results flagged for a closer look

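For 3 Reg genes, how far positive and negative cells differed depended on the region, by the interaction terms of the same edgeR model. For Reg3a, the difference was log2 -1.16 in the duodenum and 2.36 in the ileum (adjusted p of the difference between them 0.000948). For Reg3b it was -0.75 in the duodenum, against 2.09 in the ileum (adjusted p = 0.0288) and 2.77 in the colon (adjusted p = 0.0158), calls that were both lost on leaving out single libraries. For Reg1 it was -0.88 in the duodenum and -3.24 in the jejunum (adjusted p = 0.00921). The terms for Reg3a between the duodenum and colon (adjusted p = 0.0158) and between the jejunum and colon (adjusted p = 0.0412), and for Reg1 between the jejunum and colon (adjusted p = 0.00900), involve colonic groups with at most 15 and 5 reads per library. These terms were also lost on leaving out single libraries.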

How the results depend on the processing

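With 3 libraries a group and a wide spread, the calls of Reg3g and Reg4 in the ileum, of Reg3a in the colon and of Reg3b between the jejunum and ileum in positive cells were lost on leaving out single libraries. Of 197 single-gene values under the alternatives other than leaving out libraries, 186 kept their direction and side of the threshold. The stricter threshold reused the main fit and could not change a direction. The values cover positive against negative cells, without Reg1 in the colon. They also cover the called terms between regions, without those of Reg1 and Reg3a that involve the colon. Uncalled terms and region comparisons within positive or negative cells were left out. On leaving out single libraries, 133 such values kept both, 19 lost their call, 2 gained a call and 8 changed direction. Scaling by library size alone moved the median of all genes by log2 0.43 in the duodenum and 0.30 in the jejunum, and RLE factors by 0.12 in the jejunum. Only Reg3a in the jejunum changed direction under these, to 0.024 with library size alone. Levels under 3 counts, as for Reg2, could not be resolved.

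The number of Reg genes called changed by more than 1.5 times in the cases below, and smaller changes, of 1 gene each, are not listed. The share of all genes called under each alternative is not given, so these counts cannot be read against a background. The genes tested numbered 15044 in the main fit, 32904 with no filter and 7530 with 10 counts in every library. Demanding 10 counts in every library dropped Reg1 and Reg3a from the test, so that in positive against negative cells 0 jejunal and 0 ileal ones were lower and 1 colonic one was higher. Of the terms between regions, 0 remained for the duodenum and jejunum, 1 for the duodenum and ileum, 1 for the duodenum and colon and 0 for the jejunum and colon. In positive cells the duodenum gave 3 against the jejunum, 3 against the ileum and 0 against the colon, and in negative cells 0 against the jejunum and 2 against the colon, the jejunum 0 against the ileum and 2 against the colon, and the ileum 3 against the colon.

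With no filter, which fits the spread over many more genes, 2 terms were called between the duodenum and jejunum, 3 between the jejunum and ileum, 4 between the jejunum and colon and 1 between the ileum and colon. Positive cells then gave 4 for the duodenum and colon and 2 for the jejunum and ileum, and negative cells 5 for the duodenum and jejunum. At an adjusted p of 0.01, 2 were higher in ileal and 1 in colonic cells, and 1, 0 and 1 terms remained for the duodenum and ileum, duodenum and colon, and jejunum and colon. Positive cells gave 0 for the jejunum and ileum and negative cells 2 for the duodenum and ileum.

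Fits of the compared libraries alone called 1 lower in the duodenum, 0 lower in the ileum, 1 term between the jejunum and colon and 2 between the duodenum and jejunum in negative cells. The i5 index called 1 lower in the duodenum and 1 term between the jejunum and ileum. DESeq2 called 1 term each between the jejunum and ileum and the ileum and colon. For the jejunum and colon, 1 term was called with RLE factors, library size alone or protein-coding genes alone. Library size alone called 2 between the jejunum and ileum in positive cells. The cause of these changes was not tested, other than the dropped genes and the stricter threshold.

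Leaving out each library gave 0 to 1 lower in the duodenum, 1 to 2 lower in the jejunum and 1 to 2 higher in the colon. Terms ranged from 1 to 2 between the duodenum and ileum, 0 to 2 between the duodenum and colon, 0 to 2 between the jejunum and ileum and 0 to 4 between the jejunum and colon. In positive cells 0 to 1 differed between the jejunum and ileum, and in negative cells 2 to 4 between the duodenum and ileum. Directions turned for differences that were not called: Reg3b (-1.20 to 0.064) and Reg3g (-0.01 to 0.91) in the duodenum, Reg3a (-1.08 to 0.24) and Reg3b (-0.28 to 1.02) in the jejunum, and Reg4 (-0.16 to 1.74) in the colon. Reg3g in the duodenum came to -0.013 without negative library 1 and to -0.00045 without positive library 2.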
